A study of Homo sapiens with 5 samples.

Results

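The genes described here are the protein-coding zinc finger genes of human chromosome 19 whose symbol is ZNF followed by a number, ZNF441 among them. They were chosen by symbol and by their position in GENCODE release 29 (GRCh38). Of the 16677 genes in the count table, 160 met the rule, 46 on the short arm (19p) and 114 on the long arm (19q), and 6 of them carry a letter after the number. GENCODE places 247 such genes on this chromosome, and the other 87 were not analysed here. RNA came from HEK293, an established line of human embryonic kidney cells, grown without any stated treatment. The Control group held 2 wild-type libraries (Control 1 and Control 2). The rs11607019 group held 3 libraries (called variant 1, variant 2 and variant 3 below) with a T-to-C mutation at rs11607019, a variant that the series title places in SIRT3, which encodes a mitochondrial deacetylase. The question of the comparison is which transcripts differ between the genotypes. It is not stated in the labels if each library stands for its own edited clone or for a culture of a shared clone, so the p-values measure the spread between these libraries, which may be technical.

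Proteins of this family carry tandem C2H2 zinc fingers, each a short loop that holds a zinc ion through cysteine and histidine residues and reads a few bases of DNA. Many of them also carry a KRAB domain, which recruits the corepressor TRIM28 and the histone methyltransferase SETDB1, and many bind transposable elements and keep them silent. Their genes stand in tandem arrays on chromosome 19 that grew by repeated duplication, so neighbours often resemble each other in sequence.

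Library totals lay between 17122569 and 17596084 counts, and the zinc finger genes took between 0.445% and 0.511% of them. No gene of the table fell under 3 counts in a library, so a gene with no count in a library could not appear. All 160 genes passed the filter on low counts, among 16310 genes tested. Of the 8 HEK293 markers, 5 had values (VIM, PAX2, HOXB9, KRT8 and KRT18), while NEFL, NEFM and INA were not analysed here. Of 10 markers of other cells, COL1A1, COL3A1 and GFAP had values, with a summed level between 30.9 and 50.4 CPM (the count relative to the library's total, with TMM, trimmed mean of M-values, scaling). The neurofilament genes that are typical of HEK293 were therefore not checked.

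The promoters of 4 members are shown because ZNF700, ZNF320 and ZNF83 had the widest ranges over the libraries, because DESeq2 called ZNF441, and because each of these genes differed together with its neighbours. ZNF441 and ZNF700 lie in an array on 19p, and ZNF83 and ZNF320 lie in an array on 19q. The sequences are from RefSeq (GRCh38.p14), 5′ to 3′ on the strand of the gene, and run from 250 bases before to 50 bases after its start. Capitals mark every CG dinucleotide, the base pair step at which DNA is methylated, which reads the same on both strands.
ZNF441, chr19:11766750-11767049, + strand: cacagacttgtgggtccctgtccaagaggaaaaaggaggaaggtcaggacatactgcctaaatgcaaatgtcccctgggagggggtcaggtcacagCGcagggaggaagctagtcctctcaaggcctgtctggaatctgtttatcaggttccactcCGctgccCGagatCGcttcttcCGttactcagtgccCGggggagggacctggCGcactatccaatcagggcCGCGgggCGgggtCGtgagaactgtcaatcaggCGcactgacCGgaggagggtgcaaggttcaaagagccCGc
ZNF700, chr19:11924857-11925156, + strand: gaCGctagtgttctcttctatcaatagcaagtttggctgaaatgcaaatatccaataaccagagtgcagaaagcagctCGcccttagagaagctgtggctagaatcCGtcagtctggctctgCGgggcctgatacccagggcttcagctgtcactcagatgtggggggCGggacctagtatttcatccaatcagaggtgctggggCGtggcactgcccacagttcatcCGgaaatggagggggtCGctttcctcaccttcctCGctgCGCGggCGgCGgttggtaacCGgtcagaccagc
ZNF83, chr19:52690447-52690746, - strand: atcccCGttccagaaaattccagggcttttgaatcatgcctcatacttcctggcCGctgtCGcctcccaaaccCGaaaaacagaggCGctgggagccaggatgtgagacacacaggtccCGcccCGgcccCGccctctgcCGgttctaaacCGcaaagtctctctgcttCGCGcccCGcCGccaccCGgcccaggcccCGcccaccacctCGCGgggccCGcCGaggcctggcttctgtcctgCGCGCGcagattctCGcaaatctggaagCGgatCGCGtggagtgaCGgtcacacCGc
ZNF320, chr19:52897645-52897944, - strand: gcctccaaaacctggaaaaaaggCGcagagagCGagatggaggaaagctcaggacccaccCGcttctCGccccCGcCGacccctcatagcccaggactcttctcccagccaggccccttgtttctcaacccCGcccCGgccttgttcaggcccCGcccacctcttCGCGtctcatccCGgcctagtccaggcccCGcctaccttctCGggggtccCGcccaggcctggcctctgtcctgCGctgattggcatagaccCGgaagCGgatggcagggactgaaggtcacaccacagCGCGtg

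The ZNF441 and ZNF700 promoters each held 14 CG dinucleotides, the ZNF320 promoter 20 and the ZNF83 promoter 29. A promoter of the same length held at least 14 in 50.1% of the 27305 promoters of the reference table, at least 20 in 41.2% and at least 29 in 24.0%. RefSeq promoters matched 143 of the 160 members, and their median was 21 CG dinucleotides against 14 over all promoters. Of those 143, 85 (59.4%) held 20 or more. DNA methylation was not measured, and the count of CG describes the sequence only.

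Across the genotypes, the chromosome 19 zinc finger genes as a whole had a median difference near 0. At a Benjamini-Hochberg adjusted p of 0.05 over all genes, the quasi-likelihood test of edgeR called no member, and the background was 0% of all tested genes. In the same fit 9 members (5.62%) had an unadjusted p under 0.05, against 7.62% of all tested genes. Of these, 7 were higher in the rs11607019 libraries (background 4.11%) and 2 were lower (background 3.51%). Without variant 2 the count was 5, and the share of all tested genes in that fit is not given here. The median log2 fold change was -0.0038 over the members, with 80 genes higher and 80 lower, and 0.0030 over all tested genes. The groups did not overlap for 36 members (22.5%), 21 of them higher and 15 lower, against 24.8% of all tested genes. DESeq2's Wald test called 1 member, ZNF441, with a background of 0.213%. It gave 11 members an unadjusted p under 0.05, for which the share of all tested genes is not given here.

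ZNF441 (ENSG00000197044, chr19:11767000-11784078, + strand; 14 fingers in its coding sequence) held 24 and 19 counts in Control 1 and Control 2, and 81, 58 and 81 counts in variant 1, variant 2 and variant 3. Its level was 1.40 and 1.08 CPM in the Control libraries, against 4.68, 3.33 and 4.57 CPM in variant 1, variant 2 and variant 3. All 3 variant libraries stood above both Control libraries, and the exact Poisson 95% interval of Control 1 (0.896 to 2.08 CPM, counting error only) ended below that of variant 2 (2.53 to 4.30 CPM). The group means were 1.24 ± 0.223 CPM (SD, n = 2) and 4.20 ± 0.752 CPM (SD, n = 3), a log2 difference of 1.75 with an SE of 0.35. By edgeR the adjusted p was 0.579, by DESeq2's Wald test it was 0.0316, and it ran from 0.0316 to 0.998 over the alternatives tried. The difference was therefore called by DESeq2 and by no other of these fits. The name ZNF441 was singled out with results of these data known.

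**Figure D1:**
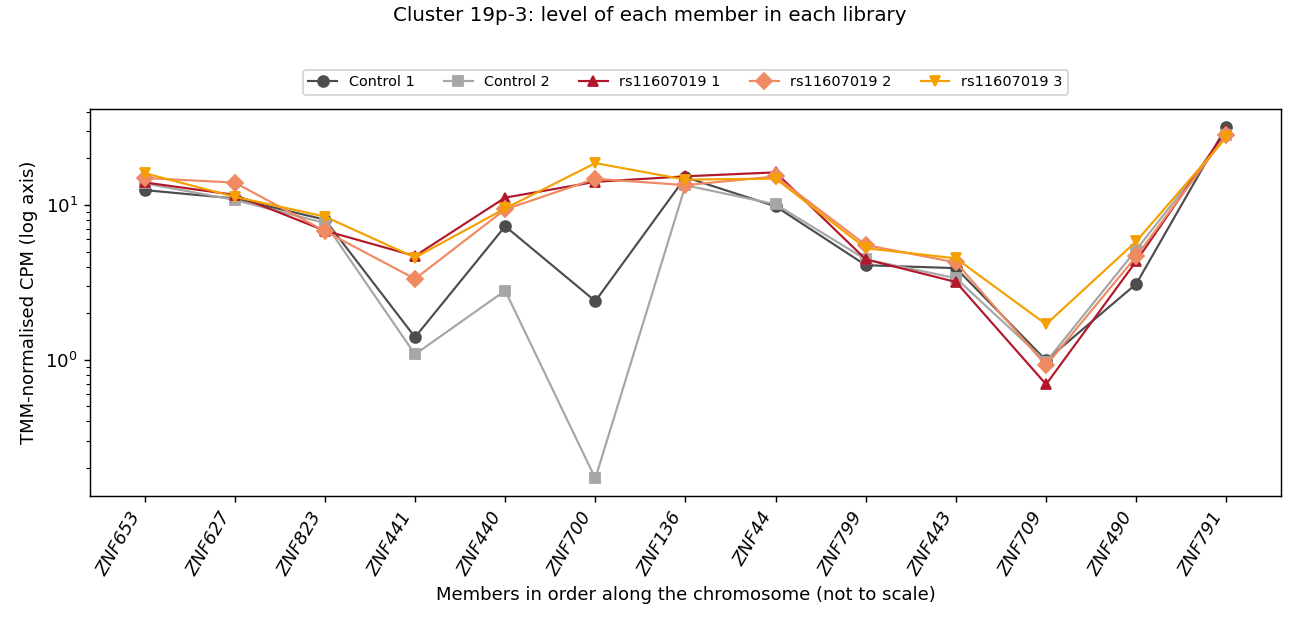
TMM-normalised CPM (log axis) of the 13 members of the array named 19p-3, in order along the chromosome, with 1 line for each library. At ZNF441, ZNF440 and ZNF700 the lines of Control 1 and Control 2 fall below those of the variant libraries, and at ZNF823 and ZNF136 on either side the 5 lines meet.

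The neighbours of ZNF441 on the same strand showed the same order of the groups. ZNF440 (chr19:11814284-11835201) stood at 7.29 and 2.79 CPM in Control 1 and Control 2, and at 11.2, 9.36 and 9.49 CPM in the variant libraries. ZNF700 (chr19:11925068-11950773) held 41 and 3 counts in the Control libraries and 244, 257 and 330 counts in the variant libraries. For both genes, Control 2 was the lowest library and the groups did not overlap. ZNF700 had means of 1.28 ± 1.57 CPM (SD, n = 2) and 15.8 ± 2.45 CPM (SD, n = 3), with a log2 difference of 3.63 (SE 0.70). Its edgeR adjusted p was 0.579. The mean of the variant libraries was 6.62 times the level of Control 1 (interval 4.88 to 9.23) and 92.5 times that of Control 2 (interval 31.7 to 449), where the intervals cover the counting error of the Control library only. Without Control 1 the log2 difference of ZNF700 was 6.47 and the adjusted p 0.0308 in the edgeR fit, in which Control 2, as the only Control library, is assumed to vary like the variant libraries. Without Control 2 they were 2.72 and 0.247. For ZNF440 the log2 difference was 0.99 (SE 0.38) and the edgeR adjusted p 0.616, and the difference was 1.84 without Control 1 and 0.46 without Control 2.

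These 3 genes span 184 kb, and no other tested gene lies between them. The nearest members on either side were level: ZNF823 stood between 6.77 and 8.42 CPM and ZNF136 between 13.4 and 15.3 CPM over the 5 libraries. GENCODE places 25 such genes in this array and 13 were analysed here, so these members need not be the adjacent genes. ZNF44, further along the array, stood at 9.79 and 10.1 CPM in the Control libraries and at 16.2, 15.3 and 14.8 CPM in the variant libraries. That gave a log2 difference of 0.63 (SE 0.21, edgeR adjusted p 0.616). In the 19p-3 array as a whole, 11 of 13 members were higher in the variant libraries, with a median log2 difference of 0.19, against 8229 of 16310 tested genes higher. The groups did not overlap for 7 of the 13, against 24.8% of all tested genes. Reads of 50 bases can be shared between duplicated genes: 0.0232% of the 50-base windows of the ZNF441 transcript, 6.43% of those of ZNF440 and 3.71% of those of ZNF700 occur in a transcript of another gene. Genes with an exon inside the span of the member were left out of this share.

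The other members with an unadjusted p under 0.05 in edgeR lay in other arrays or at other places in these. ZNF160, in the 19q-10 array, stood at 18.1 and 13.3 CPM in the Control libraries and at 24.5, 32.0 and 27.5 CPM in the variant libraries (log2 difference 0.83, SE 0.22). ZNF554, near the tip of 19p, stood at 12.4 and 14.3 against 17.3, 25.5 and 19.6 CPM. ZNF865, in 19q-11, stood at 30.2 and 34.5 against 37.2, 47.0 and 46.5 CPM, and its log2 difference of 0.43 (SE 0.19) was 0.12 (SE 0.15) with an offset for GC content and transcript length. All 3 were higher in every variant library than in either Control library. ZNF233 and ZNF283, both in 19q-7, were the 2 with lower values in the variant libraries. ZNF233 stood at 20.9 and 17.8 CPM against 11.7, 14.3 and 14.7 CPM, and ZNF283 at 51.5 and 49.6 CPM against 36.4, 33.1 and 44.0 CPM. Their groups did not overlap either, and their log2 differences were -0.51 (SE 0.21) and -0.42 (SE 0.18).

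In the 19q-10 array (51.57 to 53.58 Mb) large differences lay between libraries of the same group. From ZNF808 to ZNF816, a stretch of 9 neighbouring members, the lowest library was Control 2 or variant 1 for every gene, and these libraries belong to different groups. Neither edgeR nor DESeq2 called any member of this stretch at an adjusted p of 0.05. RNA of whole cultures was measured, so fewer cells that express a gene and less RNA per cell cannot be told apart.

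**Figure D2:**
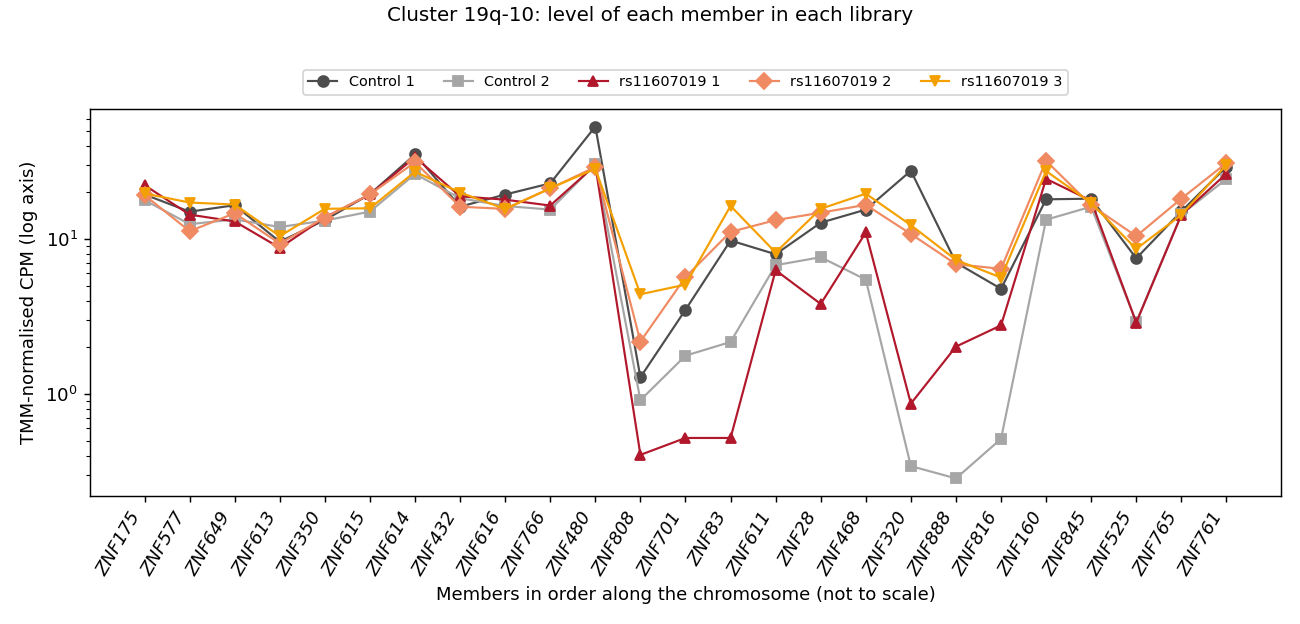
TMM-normalised CPM (log axis) of the 25 members of the 19q-10 array in order along the chromosome, with 1 line for each library. From ZNF808 to ZNF816 the lines of Control 2 and variant 1 (rs11607019 1) lie lowest, down to 0.285 CPM at ZNF888, while from ZNF175 to ZNF766 and at ZNF845, ZNF765 and ZNF761 the 5 lines lie close together.

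ZNF808, ZNF701 and ZNF83 stood at their lowest in variant 1. ZNF808, whose loss in humans is known to disturb the development of the pancreas, held 22, 16, 7, 38 and 78 counts in Control 1, Control 2, variant 1, variant 2 and variant 3. ZNF701 held 60, 31, 9, 99 and 90 counts in the same order. ZNF83 held 168, 38, 9, 194 and 290 counts. The order of the libraries was the same for ZNF808 and ZNF83, with variant 1 lowest, Control 2 next and variant 3 highest. For ZNF83 the mean of the other 4 libraries was 19 times the level in variant 1 (exact Poisson interval 9.99 to 41.5 for the count of variant 1 alone). Its group means were 5.98 ± 5.39 CPM (SD, n = 2) and 9.35 ± 8.08 CPM (SD, n = 3), with a log2 difference of 0.65 and an SE of 1.24, so the groups differed by less than the spread between libraries.

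A transcribed pseudogene, ZNF137P, lies on the opposite strand and overlaps the span of ZNF83. It held 23, 5, 3, 32 and 36 counts in Control 1, Control 2, variant 1, variant 2 and variant 3, so its lowest libraries were the same as those of ZNF83. The labels name a strand-specific library, but whether the counting used the strand is not stated, and the part of shared reads in this was not tested. Spans of neighbouring members also overlap on the same strand: that of ZNF701 overlaps ZNF808, and that of ZNF468 overlaps ZNF28 and ZNF320. Whether reads were shared between these neighbours was not tested.

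ZNF320, ZNF888 and ZNF816, further along, were lowest in Control 2. ZNF320 held 474, 6, 15, 188 and 218 counts in Control 1, Control 2, variant 1, variant 2 and variant 3. ZNF888 held 121, 5, 35, 120 and 130 counts and ZNF816 held 82, 9, 48, 112 and 100 counts. In all 3 genes variant 1 was the second lowest library. The other 4 libraries averaged 37.7 times the level of Control 2 for ZNF320 (exact Poisson interval 17.3 to 103, counting error of Control 2 only) and 20.4 times for ZNF888 (8.76 to 62.9). For ZNF320 the group means were 14.0 ± 19.3 CPM (SD, n = 2) and 7.99 ± 6.22 CPM (SD, n = 3), and the log2 difference was -0.81 with an SE of 1.52. Without Control 1 that difference was 4.52 and without Control 2 it was -1.79, so its sign depended on which Control library was used.

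Between these 2 sets, ZNF611, ZNF28 and ZNF468 differed less. ZNF611 stood between 6.30 and 13.3 CPM, ZNF28 between 3.81 and 15.7 CPM and ZNF468 between 5.47 and 19.7 CPM. ZNF28 was lowest in variant 1 and ZNF468 in Control 2. Beyond ZNF160, ZNF845 was level at 16.2 to 18.2 CPM. ZNF525 was then low in the same 2 libraries, with 2.91 CPM in Control 2 and 2.89 CPM in variant 1 against 7.52, 10.4 and 8.64 CPM in Control 1, variant 2 and variant 3. Its neighbours ZNF765 (14.3 to 18.3 CPM) and ZNF761 (24.5 to 31.0 CPM) were again level. At the other edge, ZNF480 stood at 53.3 CPM in Control 1 and between 28.5 and 30.4 CPM in the other 4 libraries.

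Neighbouring genes that differ together in a library were counted along every array. For each library the log2 ratio of a gene to its mean log2 CPM in the other 4 libraries was taken (prior count 2), and 3 or more neighbouring members with a ratio of at least 0.5 in size and of the same sign made a run. There were 10 runs, of which 4 were lower (3 in Control 2 and 1 in variant 1) and 6 were higher. Because a very low library raises the ratios of the others, the higher runs of 19p-3 and 19q-10 partly restate the lower ones. The members in any run numbered 20 (12.5%), against 6.84% of 12324 protein-coding genes that are not members, counted along each chromosome by the same rule. A median ratio of 1 or more in size was found in 8 of the 10 runs of members and in 18 of 250 runs of other genes. These 8 all lay in 19p-3 or 19q-10, where the same genes recur in the runs of different libraries, so they are not separate events. The longest run of members had 10 genes, in variant 2 from ZNF808 to ZNF160, and the longest run of other genes had 25, on chromosome 9 in the same library.

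**Figure D3:**
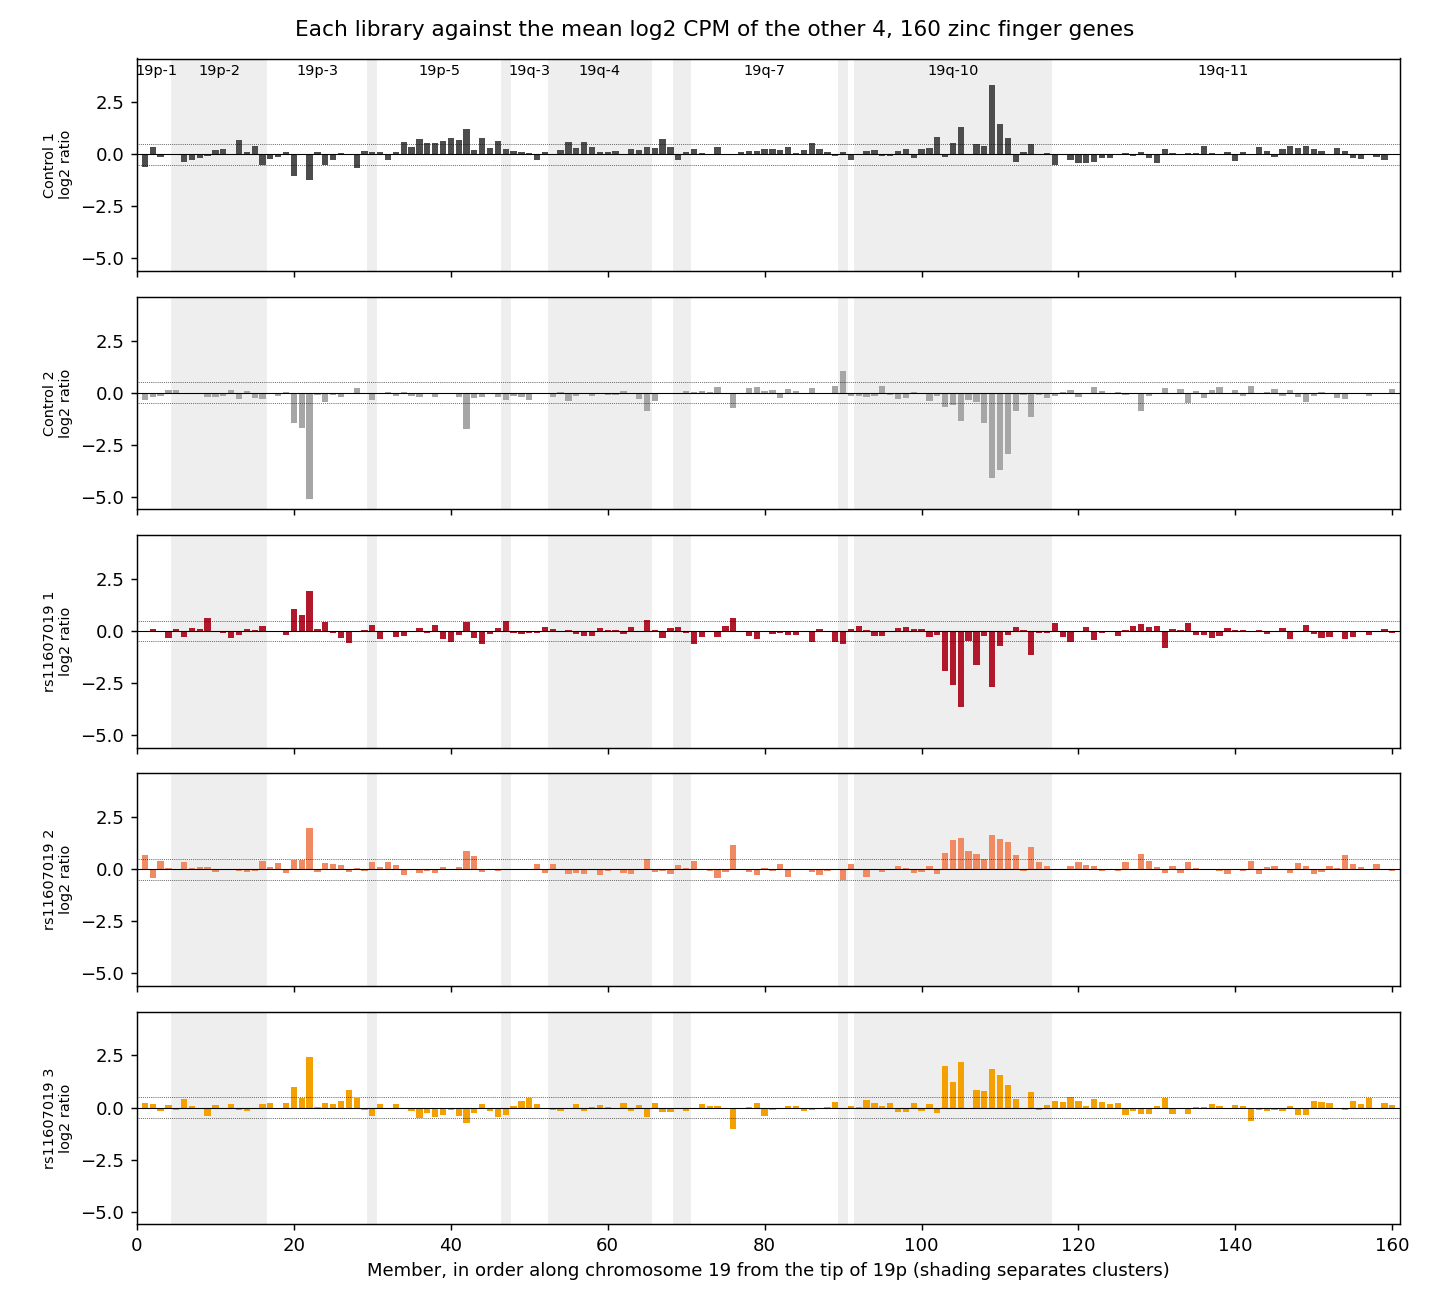
Log2 ratio of each library to the mean of the other 4 for the 160 members in order along chromosome 19, with dotted lines at 0.5 in either direction and shading that separates the arrays. Bars leave the dotted lines together in 19p-3 and 19q-10, and the broad set of small positive bars over 19p-5 appears in Control 1 only.

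Single members past that ratio were spread over the libraries as follows. In Control 1, 22 members were higher and 6 lower (13.8% and 3.75%), against 20.3% of all tested genes in both directions together. In Control 2, 1 was higher and 17 lower, against 13.1% of all genes. In variant 1, 6 were higher and 16 lower (background 18.6%), in variant 2, 18 were higher and 0 lower (background 15.2%), and in variant 3, 12 were higher and 3 lower (background 15.6%). The shares of members past the ratio were thus below the background in each library. Of the 17 lower members of Control 2, 11 were in runs, and of the 16 of variant 1, 3 were.

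A further run lay in 19p-5. It held 7 genes, from ZNF714 to ZNF492, that were higher in Control 1 by a median log2 ratio of 0.67. Of the 6 other tested genes inside its 1586 kb, 1 was past 0.5 in the same direction, and their median ratio was 0.25. ZNF714 stood at 50.1 CPM in Control 1 and between 25.3 and 35.7 CPM in the other libraries, and ZNF100 at 32.0 CPM against 17.7 to 23.5 CPM. ZNF91, the gene with the most fingers (31) and a known repressor of SVA retrotransposons, stood at 28.5 CPM in Control 1 and between 13.2 and 20.6 CPM in the others. The transcripts of this array had a median GC content of 37.3%, against 48.6% over all tested genes. After a correction of each library for GC content and transcript length, the median ratio of the 7 genes was 0.32 and 1 of 7 was still past 0.5. After the same correction, all 3 genes of the low Control 2 run in 19p-3 were past 0.5. So were all 5 of the Control 2 run from ZNF468 to ZNF160. The part of GC content or length in any of these runs was not tested. ZNF492 differed apart from this pattern, with 38, 6, 24, 32 and 12 counts in Control 1, Control 2, variant 1, variant 2 and variant 3. Of its 50-base windows, 33.7% occur in a transcript of another gene with no exon inside its span.

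The median log2 difference between the groups was then taken by array. Arrays were separated at gaps of 1 Mb or more, or at the centromere, and 10 of them held 3 or more members. The medians were 0.05 in 19p-1 (4 members), -0.03 in 19p-2 (12), 0.19 in 19p-3 (13) and -0.28 in 19p-5 (16). On the long arm they were 0.07 in 19q-3 (5), -0.05 in 19q-4 (13), -0.19 in 19q-5 (3), -0.15 in 19q-7 (19), 0.12 in 19q-10 (25) and 0.03 in 19q-11 (44). In 19p-5, 12 of 16 members were lower in the variant libraries, and this rested on 1 library: the median was 0.06 without Control 1 and -0.59 without Control 2. With the offset for GC content and length it was -0.052. The 19q-10 median was 0.28 without Control 1 and -0.037 without Control 2, and the 19q-11 median was -0.0023 without Control 2. In 19q-7, 16 of 19 members were lower. The 19q-11 array, the largest, had 24 members higher and 20 lower.

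**Figure D4:**
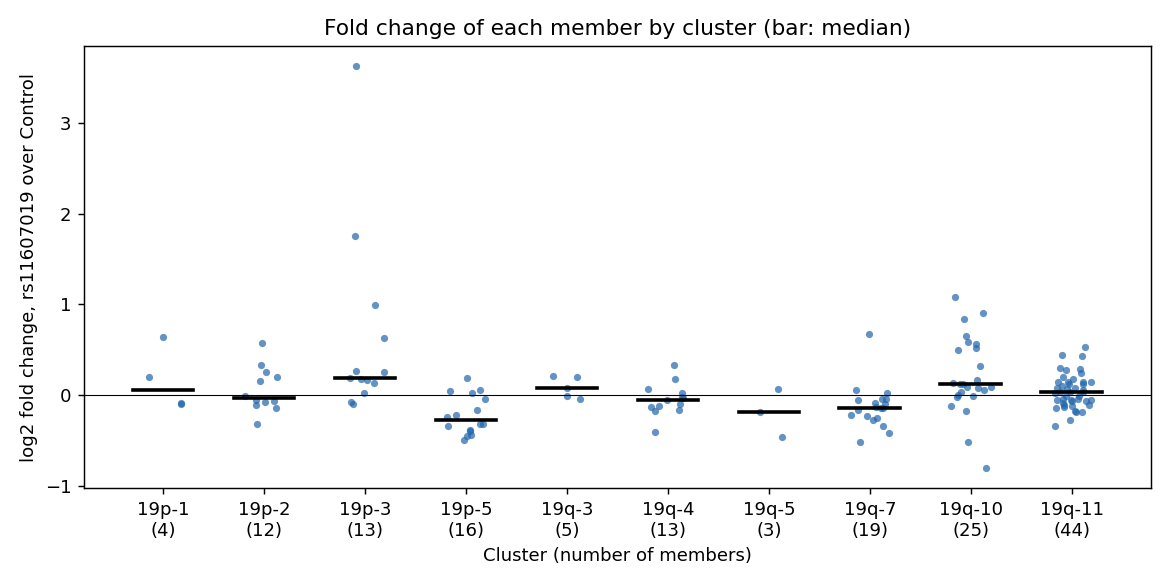
Log2 fold change (rs11607019 over Control) of each member in the 10 arrays with 3 or more members, with the median as a bar and the number of members under each name. The medians lie between -0.28 (19p-5) and 0.19 (19p-3), and ZNF700 lies highest at 3.63.

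The spread over the 5 libraries was small for most chromosome 19 members and wide for a few. The range of a gene is its highest minus its lowest log2 CPM. The median range was 0.46 for the members and 0.64 for all tested genes, so most members varied less than a typical gene. A range of 2 or more was found for 10 members (6.25%), against 2.31% of all tested genes and 2 of 212 zinc finger genes named in the same way on other chromosomes (0.943%). Among genes with a mean of at least 50 counts it was found for 8 of 152 members (5.26%), against 1.36%. Of the 10, 7 lie in 19q-10 (ZNF320, ZNF83, ZNF888, ZNF816, ZNF701, ZNF808 and ZNF28), 2 in 19p-3 (ZNF700 and ZNF441) and 1 in 19p-5 (ZNF492). ZNF28 (2.01) and ZNF441 (2.001) were just inside the threshold and ZNF440 (1.95) just outside. Without Control 2 the count was 6 (3.75%) against 1.81% of all tested genes. The range and its threshold were chosen after the data were seen, and the difference in share was not tested.

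**Figure D5:**
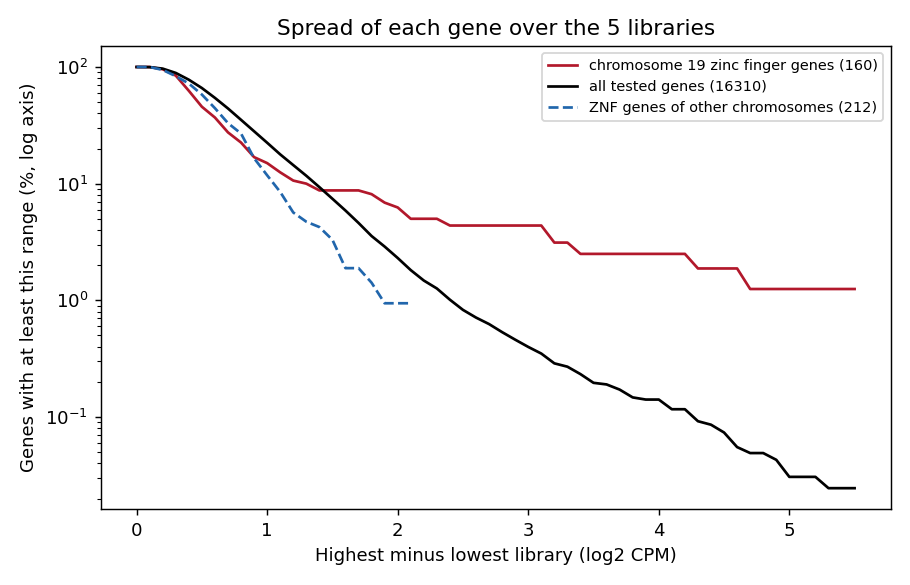
Share of genes (%, log axis) with at least the range on the horizontal axis (highest minus lowest library, log2 CPM), for the 160 members, all 16310 tested genes and 212 zinc finger genes of other chromosomes. The members lie below all tested genes at small ranges and above them at a range of 2 (6.25% against 2.31%) and beyond.

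The members differed widely in level. Per kilobase of exon, ZNF146, whose protein consists almost wholly of fingers, was highest at 77.0 CPM per kb, followed by ZNF428 (70.6) and ZNF580 (31.4), and ZNF709 was lowest (0.185). The median was 3.68 CPM per kb, against 4.95 over all tested genes and 12.7 over the other protein-coding genes of chromosome 19. ZNF146 stood at 359, 323, 310, 312 and 292 CPM in Control 1, Control 2, variant 1, variant 2 and variant 3, a log2 difference of -0.16 with an SE of 0.13. The coding sequences held a median of 12 fingers, counted as the pattern of cysteines and histidines at their usual spacing, and 149 of 160 held 5 or more. The median share of 50-base windows found in another gene's transcript was 1.35%, with the most in ZNF417 (38.3%), and 18 members had 10% or more, so their counts could be split between copies. Genes with an exon inside a member's span were left out of this share, so sharing with overlapping genes is not part of it. Exons of another gene overlapped 50 members on the opposite strand and 54 on the same strand.

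The corepressor complex that KRAB zinc finger proteins recruit and its chromatin partners were described from a list of 31 genes. ZNF274 on this list is itself a member, and all 31 genes were tested. By edgeR none was called at an adjusted p of 0.05, 4 (12.9%) had an unadjusted p under 0.05 against 7.62% of all tested genes, and the median log2 difference was -0.0071. TRIM28, the scaffold that KRAB domains bind, stood at 1083 and 1256 CPM in the Control libraries and at 1332, 1220 and 1294 CPM in the variant libraries. EHMT1 and EHMT2, methyltransferases of histone H3 lysine 9, had log2 differences of 0.49 and 0.53, DAXX, a histone chaperone, had 0.44, and CBX3, a reader of methylated lysine 9, had -0.46. ZNF274, a chromosome 19 member that brings SETDB1 to other zinc finger genes, stood at 104 and 97.4 against 78.9, 89.1 and 111 CPM, so its groups overlapped. The zinc finger genes of other chromosomes had a median log2 difference of 0.04. The other protein-coding genes of chromosome 19 had 0.10, with 525 of 749 higher, and their median GC content was 60.3% against 43.0% for the members.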

How the data were processed

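Gene expression was measured by RNA sequencing in 5 HEK293 libraries, 2 Control and 3 rs11607019. Per the labels' protocols, total RNA was extracted with TRIzol, and strand-specific mRNA libraries were read as single ends of 50 bases on DNBSEQ. The submitters' processing notes name the hg38 build, HISAT2, SAMtools and HTSeq, without versions. The annotation, the strand setting of the counting and the filter on low genes are not given in the sources used here. The authors deposited raw read counts per gene, not normalized. Columns were matched to libraries by name, and 0 columns were without a sample.

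Positions came from GENCODE release 29, which placed 16565 of 16677 genes. Symbols came from a separate reference list of gene names for 15250 genes, and GENCODE names were used only where that list had none. The members, lists and tests were chosen with earlier results of these data known. Named genes were ZNF441, the 15 members with the smallest p, the highest member of each array of 3 or more, members of runs, the 3 highest and 3 lowest by level, and calls by either tool. Other genes named were chosen after their values were seen. Counts were filtered with filterByExpr, scaled by TMM and tested in edgeR 4.0.16 (R 4.3.3) by quasi-likelihood F tests, robust and two-sided, with Benjamini-Hochberg adjustment over all 16310 tested genes. SE came from the fold change and F. The biological coefficient of variation was 19.8%. Alternatives were limma-voom (limma 3.58.1), DESeq2 1.42.0 (Wald test), RLE scaling, scaling by the upper quartile, at least 10 counts per library or no filter at all, a replicate block, a GC content and length offset (splines with 5 degrees of freedom), each library left out, other gaps and run rules, and symbols without a letter. The range over libraries and its alternatives were chosen after seeing the data. Scripts were tested on simulated data. Reads carry no molecular identifiers, so intervals cover counting error only.

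Same-numbered libraries correlated at 0.12 (number 1) and -0.11 (number 2) in their deviations from the group means. With 2 Control libraries, the deviations of Control 1 and Control 2 are equal and opposite, so these values are not independent. They cannot show if same-numbered libraries were handled together.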

Additional observations from a re-analysis of the deposited data

How the results depend on the processing

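The comparison between genotypes rested on 2 Control and 3 rs11607019 libraries, and genes with few counts in a library (3 to 9 for ZNF700, ZNF320, ZNF888, ZNF816, ZNF701, ZNF808 and ZNF83) carry wide counting intervals. The count of members past an adjusted p of 0.05 was 0, and 1 with DESeq2 (ZNF441, log2 difference 1.76, adjusted p 0.0316), with 0 to 1 when each library was left out. At an unadjusted p under 0.05 it was 9, with 5 to 10 when each variant library was left out. The shares of all tested genes at this unadjusted p are not given here for the alternatives. The median log2 difference of the members ran from -0.073 to 0.10, and the count of members with a range of 2 or more from 6 to 10. Runs numbered 4 when 4 or more neighbours were asked for, and between 4 and 14 over all alternatives. With each library left out, the array medians ran from 0.032 to 0.18 (19p-1), -0.039 to 0.11 (19p-2), 0.14 to 0.34 (19p-3), -0.59 to 0.061 (19p-5), -0.051 to 0.15 (19q-3), -0.15 to 0.10 (19q-4), -0.35 to -0.020 (19q-5), -0.20 to -0.056 (19q-7), -0.037 to 0.28 (19q-10) and -0.0023 to 0.059 (19q-11). A gap of 2 Mb gave 0.17 for the array that holds 19p-2, -0.025 for that of 19q-3 and 19q-4 and 0.068 for that of 19q-10 and 19q-11, and a shorter gap gave -0.010 for 19q-11. The GC content and length offset gave 0.089 for 19p-1, -0.00078 for 19p-2, -0.052 for 19p-5, 0.22 for 19q-3, -0.00077 for 19q-4, -0.095 for 19q-5, 0.21 for 19q-10 and -0.030 for 19q-11, and 0.25 and -0.10 for 19p-3 and 19q-7. With the replicate block, in which variant 3 has no partner and so adds nothing to the comparison, 9 members had an unadjusted p under 0.05, 0 passed the adjusted threshold, and the ZNF441 difference was 1.68. The block turned the sign of ZNF709 (-0.29, and -0.24 with the offset), ZNF701 (-0.23 and -0.31), ZNF83 (-0.53 and -0.49) and ZNF28 (-0.35 and -0.32). The block with the offset did so for ZNF708 (0.044) and ZNF302 (0.11), the offset alone for ZNF302 (0.17), and limma-voom for ZNF28 (-0.034) and ZNF320 (0.64). With each library left out, signs turned for ZNF121 (-0.66 to 0.12), ZNF709 (-0.28 to 0.41), ZNF791 (-0.16 to 0.012), ZNF714 (-0.72 to 0.061), ZNF708 (-0.50 to 0.077), ZNF100 (-0.65 to 0.062), ZNF492 (-0.77 to 1.90), ZNF302 (-0.13 to 0.12), ZNF875 (-0.17 to 0.0035), ZNF83 (-0.066 to 2.11), ZNF611 (-0.027 to 0.54), ZNF28 (-0.16 to 0.58), ZNF320 (-1.79 to 4.52), ZNF888 (-0.38 to 4.21) and ZNF444 (-0.15 to 0.044). None of these had passed the threshold, and the cause of each change was not tested. Under the alternatives tried, 503 values of named genes kept their sign and their side of the threshold, and 34 turned their sign. Another 140 counts, medians and ZNF441 differences stayed within 1.5 times the count, within the spread between libraries, or on their side of the threshold. A further 21 moved outside these limits.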
